A study of Mus musculus with 4 samples.

Results

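The 9 genes described here encode the steroid hormone receptors of the mammary gland (Esr1 and Pgr), transcription factors of its luminal cells (Gata3, Foxa1 and Elf5), and factors of its progenitor and basal cells (Sox9, Sox10, Kit and Trp63). Every probe set whose only symbol in the platform annotation is one of these genes was taken, which gave 19 probe sets of 45037 on the array. Pgr, Sox9 and Sox10 have 3 probe sets each, Trp63 has 4, Elf5 has 2, and the remaining 4 genes have 1. Where a gene has several, the one with the highest mean over all arrays stands for the gene, and the others are described beside it. Total RNA came from 4T1Ch9 tumors, a mouse model of triple negative breast cancer (TNBC), grown from 50000 cells in the mammary fat pad of young female Balb/c wild-type mice. Tumors grew for 10 days, and mice then received trametinib, which blocks the kinase MEK (MEKi, 1 mg/kg daily), or its vehicle, for 7 days. Each group has 2 Affymetrix MG-430PM arrays. All tumors derive from the same cell line. No source used here states whether arrays of the same label stem from different mice, and p-values therefore reflect only array-to-array spread, which may be technical.

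In the mammary gland, hormone-sensing luminal cells carry estrogen and progesterone receptors, and secretory luminal cells and their progenitors carry Elf5 and Kit. Gata3 and Foxa1 act together with the estrogen receptor on chromatin and hold cells in the luminal state. Trp63 marks the basal layer, Sox9 marks luminal progenitors, and Sox10 marks stem-like and neural crest-like cells of the gland and of some basal-like cancers. TNBC is defined by the absence of estrogen and progesterone receptors and of HER2 amplification. Several of these genes are also active outside the epithelium, Gata3 in T cells, Kit in mast cells and Sox10 in Schwann cells and melanocytes.

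The arrays did not group by label. Over all 45037 probe sets, Pearson's r across probe sets (not independent of each other) came to 0.927 between the arrays labelled MEKi and 0.959 between those labelled vehicle. It was 0.992 between MEKi 1 and vehicle 2 and 0.978 between MEKi 2 and vehicle 1. The median log2 expression of 18 MAPK output genes, which lie downstream of MEK, was 7.98 in the array labelled MEKi 1 and 10.17 in that labelled MEKi 2, against 9.67 in vehicle 1 and 8.70 in vehicle 2. No label was changed, and every array is named below by its label. Whether labels were exchanged between arrays was not tested, and with exchanged labels a difference by label would not compare MEKi with vehicle. Beside the test by label, each difference is therefore given for MEKi 1 against vehicle 1 and for MEKi 2 against vehicle 2, untested, since each side has 1 array. The sources used here do not state whether these numbers pair samples, so the 2 differences are not matched pairs. Values are log2 units after RMA, and array medians lay between 4.98 and 5.14, so a reading below these is near the floor. Of the 17 tumor epithelial genes checked, 13 lay above the median of the array on all 4 arrays, as did 9727 of all 17097 genes.

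None of the 19 probe sets was called by label with limma (two-sided, Benjamini-Hochberg adjustment over all probe sets, called at p under 0.05, fold change over 1.5 and adjusted p under 0.1), and 0% of all probe sets were. The adjusted p was 1 for all 19. At an unadjusted p under 0.05 there was 1 member probe set, of Sox10, and 406 of 45037 probe sets. The log2 fold change by label ran between −1.52 and 0.38, with a median of −0.04 over the 19 probe sets and 0.01 over all probe sets. Of the 19, 6 lay above the median of the array on all 4 arrays, 10 lay below it on all 4, and 3 lay above it on some arrays only. The 6 are the probe sets of Gata3, Foxa1 and Kit, 2 of Sox9 and 1 of Sox10.

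**Figure D1:**
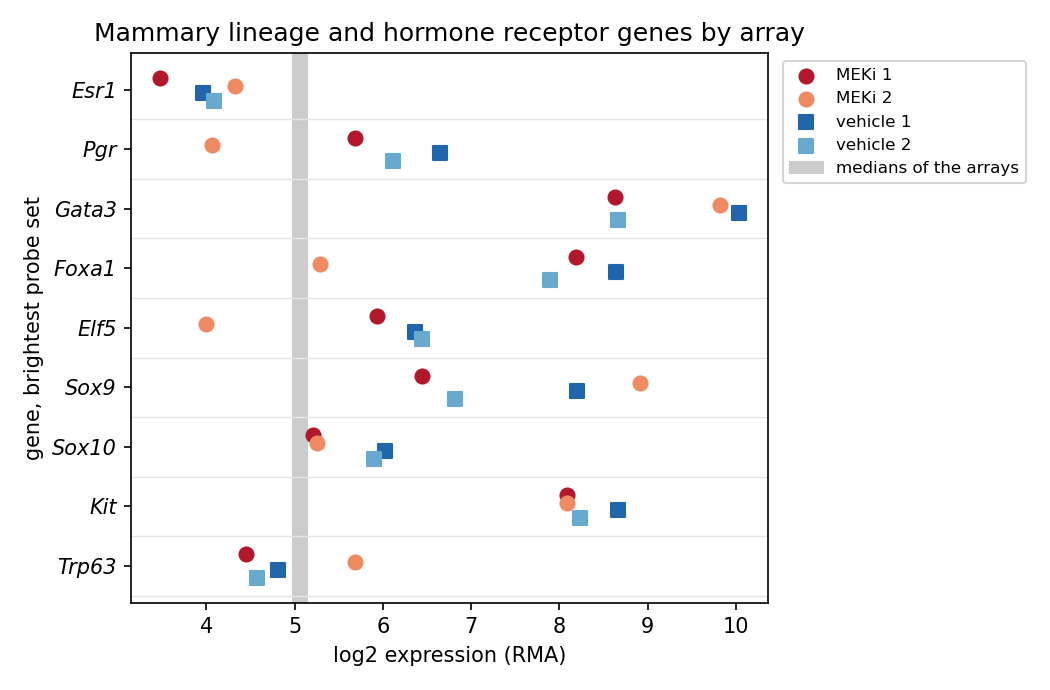
Log2 expression (RMA, horizontal axis) of the brightest probe set of each of the 9 genes, 1 point per array (circles, labelled MEKi; squares, labelled vehicle), and a grey band over the array medians. Esr1 lies left of the band on every array, and for Foxa1, Elf5 and Pgr the array labelled MEKi 2 lies apart from the other three.

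Esr1, which encodes the estrogen receptor α, was near the floor on every array. Its probe set read 3.48 and 4.32 in the arrays labelled MEKi 1 and 2, against 3.96 and 4.09 in those labelled vehicle 1 and 2. The groups overlapped, with the lowest and the highest reading both under the MEKi label, and the log2 fold change was −0.13 (SE 0.35, adjusted p = 1, limma). Pgr, which encodes the progesterone receptor, a classic target of the estrogen receptor, lay above the array median on 3 of the 4 arrays. Its brightest probe set read 5.68 and 4.07 in the arrays labelled MEKi 1 and 2, against 6.65 and 6.12 in vehicle 1 and 2. Both arrays labelled MEKi were below both labelled vehicle, with MEKi 2 lowest, and the log2 fold change of −1.51 (SE 0.64, adjusted p = 1, limma) did not pass. It was −0.71 without MEKi 2, −2.32 without MEKi 1 and −0.47 with the mean of its 3 probe sets. The other 2 probe sets of Pgr read between 3.26 and 3.82 on all arrays and overlapped between the groups, so the spread of Pgr rests on 1 probe set.

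The windows before the transcript starts of Foxa1, Elf5 and Pgr are shown because these genes shared their lowest array. The sequences are from RefSeq (GRCm38.p6), 250 bases each, read 5′ to 3′ on the strand of the gene and ending at the base before the start, at chr12:57546112-57546361 (minus strand), chr2:103411848-103412097 and chr9:8899583-8899832 (plus strand). Of the 9 genes, 6 matched the table, and the first listed window of Elf5 is shown. The gene spans are chr12:57540628-57548029 for Foxa1 and chr9:8898900-8968611 for Pgr. The windows of these genes therefore lie inside the span and precede an internal transcript start. Capitals mark letters that match a motif on either strand. The forkhead motif was searched as TGTTTNC. The motif of GATA factors was searched as GATAAG. The AP-1 motif, to which Fos and Jun bind, was searched as TGANTCA. The motif of ETS factors such as Elf5 was searched as CCGGAA. The half-site of the estrogen response element was searched as GGTCA.
Foxa1: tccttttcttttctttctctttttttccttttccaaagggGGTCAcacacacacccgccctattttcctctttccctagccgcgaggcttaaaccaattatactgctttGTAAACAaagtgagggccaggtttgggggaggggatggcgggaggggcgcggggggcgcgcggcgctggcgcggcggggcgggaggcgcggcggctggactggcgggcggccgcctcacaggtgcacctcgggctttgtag
Elf5: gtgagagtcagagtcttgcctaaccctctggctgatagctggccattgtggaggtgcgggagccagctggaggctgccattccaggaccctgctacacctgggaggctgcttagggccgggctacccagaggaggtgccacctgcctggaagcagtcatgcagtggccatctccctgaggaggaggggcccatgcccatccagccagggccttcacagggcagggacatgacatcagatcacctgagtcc
Pgr: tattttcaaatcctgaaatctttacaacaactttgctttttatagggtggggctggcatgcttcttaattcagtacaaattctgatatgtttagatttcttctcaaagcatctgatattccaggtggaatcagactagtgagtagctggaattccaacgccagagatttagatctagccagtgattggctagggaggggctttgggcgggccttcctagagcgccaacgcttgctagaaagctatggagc
The Foxa1 window holds a half-site and a forkhead match, which lies from −141 to −135 before the start and does not overlap the half-site. The Elf5 and Pgr windows shown hold none of the 5 motifs, and a second Elf5 window of the table, not shown, holds a GATA match from −207 to −202. Among 32851 windows of the same length, 17.8% hold the forkhead letters, 6.55% the GATA letters, 6.75% the AP-1 letters, 12% the ETS letters and 35.2% the half-site. These matches describe the letters only.

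Foxa1, a forkhead factor that opens chromatin for the estrogen receptor, was lowest in the array labelled MEKi 2. It read 8.19 and 5.29 in the arrays labelled MEKi 1 and 2, against 8.64 and 7.90 in vehicle 1 and 2. MEKi 1 lay between the arrays labelled vehicle, so the groups overlapped, and the log2 fold change was −1.52 (SE 1.11, adjusted p = 1, limma). It was −0.08 without MEKi 2 and −2.97 without MEKi 1, so its size rests on that array. Elf5, an ETS factor of secretory and progenitor luminal cells, had the same lowest array. Its brightest probe set read 5.94 and 4.00 in the arrays labelled MEKi 1 and 2, against 6.36 and 6.45 in vehicle 1 and 2. Both arrays labelled MEKi were below both labelled vehicle, and the reading in MEKi 2 lay below the array's median of 4.98. The log2 fold change of −1.44 (SE 0.73, adjusted p = 1, limma) did not pass, and it was −0.47 without MEKi 2, −2.40 without MEKi 1 and −0.70 with the mean of its probe sets. The other Elf5 probe set read between 3.68 and 4.26 on all arrays.

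Gata3, a zinc finger factor needed to form and keep luminal cells, was ordered otherwise. It read 8.63 and 9.82 in the arrays labelled MEKi 1 and 2, against 10.04 and 8.67 in vehicle 1 and 2. The readings of MEKi 2 and vehicle 1 were more than 1 log2 unit above those of MEKi 1 and vehicle 2, so each label holds a high and a low array. By label the log2 fold change was −0.13 (SE 0.68, adjusted p = 1, limma), and it was 0.47 without MEKi 1 and 0.56 without vehicle 1. After centring on tumor epithelial genes it was 0.78, a scaling that moved the median of all probe sets from 0.01 to 0.92.

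Sox9, an SRY-related factor of luminal progenitors, was also ordered across the labels. Its brightest probe set read 6.44 and 8.92 in the arrays labelled MEKi 1 and 2, against 8.20 and 6.82 in vehicle 1 and 2. A further probe set kept this order, with 6.23 and 8.07 in the arrays labelled MEKi and 7.45 and 6.40 in those labelled vehicle, while the other read between 3.97 and 4.16. The log2 fold change by label was 0.18 (SE 1.05, adjusted p = 1, limma), and it was −1.06 without MEKi 2 and −0.52 without vehicle 2. Trp63, which encodes p63, a p53 relative that keeps the basal layer, was near the floor in most arrays. Its brightest probe set read 4.45 and 5.68 in the arrays labelled MEKi 1 and 2, against 4.81 and 4.57 in vehicle 1 and 2. Only the reading of MEKi 2 lay above the median of its array, and the log2 fold change was 0.38 (SE 0.48, adjusted p = 1, limma). Without MEKi 2 it was −0.23. The other 3 probe sets of Trp63 read between 3.47 and 4.55, below the array medians on all 4 arrays, and ran in different directions by label.

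Sox10, a relative of Sox9, and Kit, a receptor tyrosine kinase for stem cell factor, had the smallest differences of the 9 genes between the arrays labelled MEKi (−0.05 and 0.00), with 0.12 and 0.42 between those labelled vehicle. The brightest Sox10 probe set read 5.21 and 5.26 in the arrays labelled MEKi 1 and 2, against 6.02 and 5.90 in vehicle 1 and 2. It was the only member that was over 1.5-fold lower in both same-number differences besides Pgr, with −0.81 and −0.64, and its log2 fold change was −0.73 (SE 0.17, unadjusted p = 0.0137, adjusted p = 1, limma). It was between −0.79 and −0.67 when any 1 array was left out, but −0.20 with the mean of its 3 probe sets. After centring on tumor epithelial genes it was 0.18, while the median of all probe sets moved from 0.01 to 0.92. A second Sox10 probe set ran the other way as deposited, at 4.79 and 4.77 in the arrays labelled MEKi against 4.64 and 4.56 in those labelled vehicle, below the array medians. Kit read 8.09 in both arrays labelled MEKi, against 8.67 and 8.24 in vehicle 1 and 2. The groups did not overlap, and the log2 fold change was −0.37 (SE 0.22, adjusted p = 1, limma). It was 0.54 after centring on tumor epithelial genes, also below the shifted median of 0.92 over all probe sets.

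Of the 19 probe sets, 5 had both arrays labelled MEKi below both labelled vehicle, against 9.86% of all probe sets, and 1 had both above, against 12.1% of all probe sets. The 5 belong to Pgr, Elf5, Sox10, Kit and Trp63, and the 1 to Sox10. In MEKi 1 relative to vehicle 1, 0 probe sets were over 1.5-fold higher, against 11.6% of all probe sets, and 5 were over 1.5-fold lower, against 13.5% of all. The 5 were those of Gata3 (−1.41), Pgr (−0.97), Sox10 (−0.81) and Sox9 (−1.76 and −1.21). In MEKi 2 relative to vehicle 2, 5 were over 1.5-fold higher, against 14.2% of all, and 5 over 1.5-fold lower, against 13.5% of all. Higher were Gata3 (1.15), 2 probe sets of Sox9 (2.11 and 1.67) and 2 of Trp63 (1.11 and 0.77). Lower were Foxa1 (−2.60), Elf5 (−2.45), Pgr (−2.05), Sox10 (−0.64) and a Trp63 probe set near the floor (−1.0). After centring on tumor epithelial genes, which moved all probe sets by 0.45 and 1.37 in these differences, Foxa1 and Elf5 stood at 0.01 and 0.03 in MEKi 1 relative to vehicle 1 and at −1.24 and −1.08 in MEKi 2 relative to vehicle 2, so only the second difference kept its sign. The sign as deposited differed between the same-number differences for 4 of the 9 genes (Esr1, Gata3, Sox9 and Trp63).

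**Figure D2:**
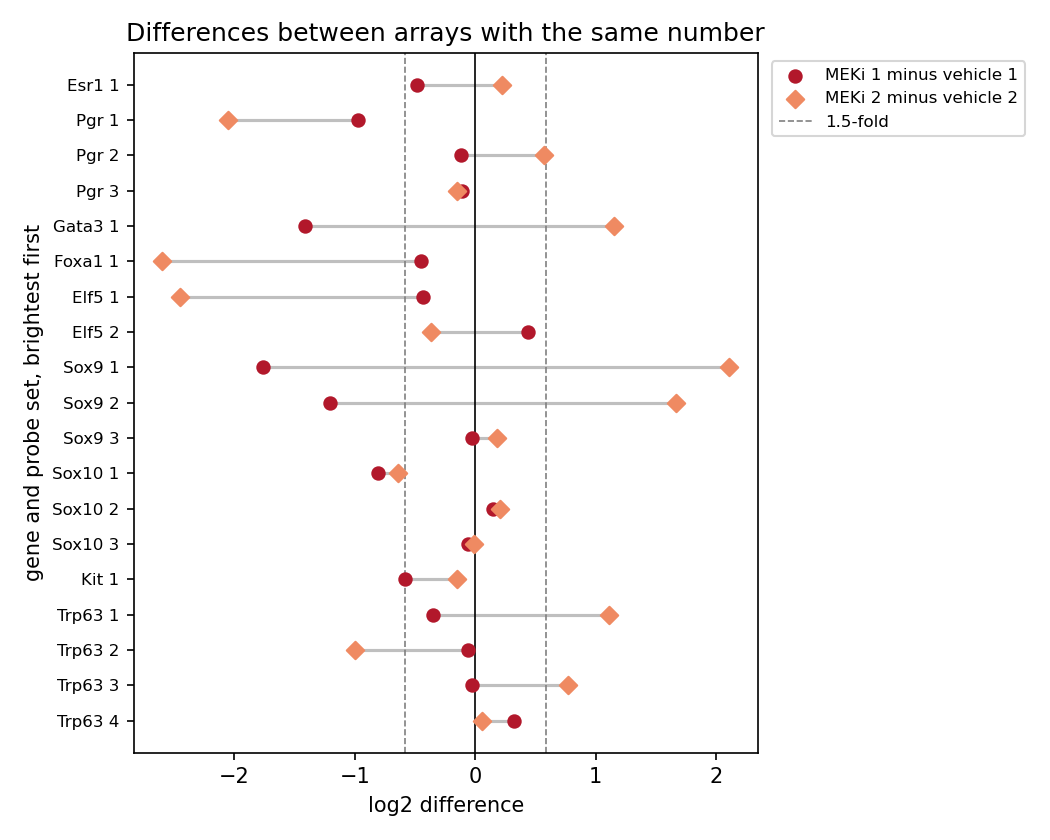
Log2 difference (horizontal axis) of each of the 19 probe sets between arrays with the same number, with circles for MEKi 1 minus vehicle 1, diamonds for MEKi 2 minus vehicle 2, dashed lines at 1.5-fold and probe sets numbered within a gene, brightest first. The 2 brighter Sox9 probe sets lie on opposite sides of 0 (−1.76 and 2.11 for the brightest), and Foxa1 and Elf5 are the farthest left in MEKi 2 minus vehicle 2 (−2.60 and −2.45).

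Several members differed widely between arrays of the same label. The arrays labelled MEKi lay over 2-fold apart in 7 of the 19 probe sets, against 16.6% of all probe sets, and those labelled vehicle in 3, against 9.95% of all. The median range over the 4 arrays was 0.81 for the members and 0.51 for all probe sets. Across all probe sets MEKi 1 minus MEKi 2 and vehicle 1 minus vehicle 2 ran in opposite directions, with r = −0.764. Gata3 and Sox9 followed this, with −1.19 and −2.48 for MEKi 1 minus MEKi 2 and 1.37 and 1.38 for vehicle 1 minus vehicle 2. Foxa1 and Pgr did not, with 2.9 and 1.61 for MEKi 1 minus MEKi 2 and 0.74 and 0.53 for vehicle 1 minus vehicle 2. For Elf5 the arrays labelled MEKi differed by 1.94 and those labelled vehicle by −0.08.

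**Figure D3:**
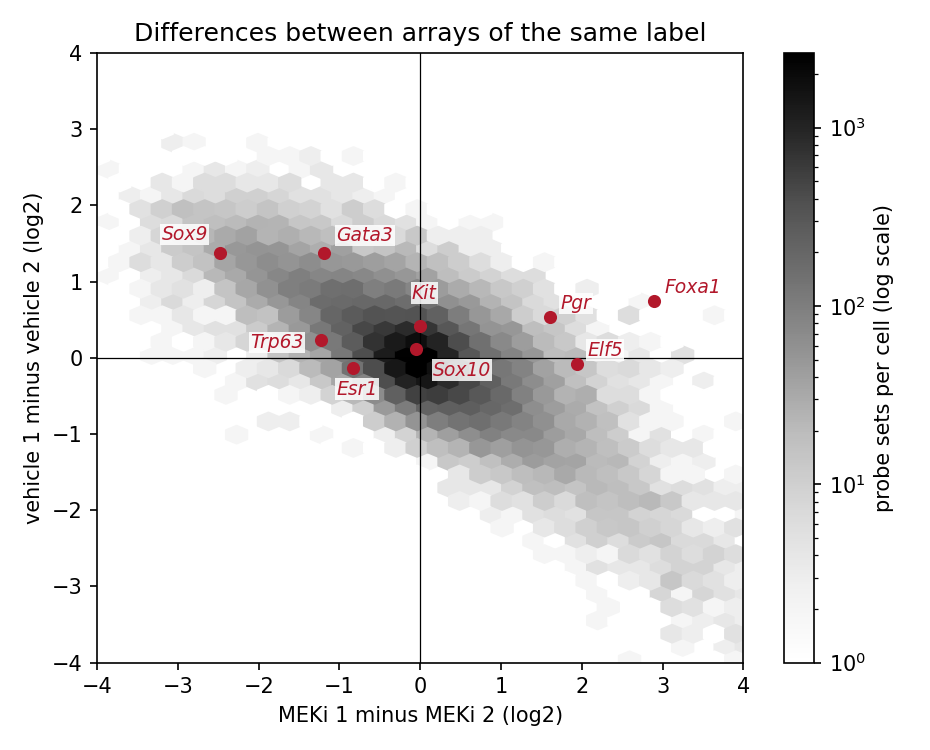
Log2 difference of MEKi 1 minus MEKi 2 (horizontal axis) and of vehicle 1 minus vehicle 2 (vertical axis), with all probe sets as grey cells on a log scale of density and the brightest probe set of each member as a red point, on axes that end at 4 log2 units and leave out 323 probe sets. Sox9 and Gata3 lie in the upper left, Foxa1 lies at 2.9 and 0.74, and Kit and Sox10 lie near the centre.

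Other genes of the same pathways were counted from lists chosen with earlier results of these data known, and 0 members of any list were called by label. Of 12 listed steroid and nuclear receptors, 11 were measured, with a median log2 fold change by label of −0.07, against 0.01 over all 17097 genes. Nr3c1, which encodes the glucocorticoid receptor, read 9.28 and 9.04 in the arrays labelled MEKi 1 and 2, against 9.07 and 9.40 in vehicle 1 and 2, while Esr2, which encodes the estrogen receptor β, read between 3.75 and 4.33. Rara, a retinoic acid receptor gene, read 6.44 and 8.0 in the arrays labelled MEKi, against 7.79 and 6.71 in those labelled vehicle, the same order of arrays as Sox9. The MAPK output medians given above had this order too. MEKi 1 and vehicle 2 were both below the other arrays in 16 of those 18 genes and in 5132 of all 17097 genes.

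Of 13 genes of the estrogen and progesterone response, 11 were measured, with a median by label of −0.19. Greb1, Calcr and Pdzk1, 3 of the 11, lay below the array medians on all arrays, against 5822 of all 17097 genes. Tff1, Xbp1, Ccnd1 and Igfbp4, 4 of the 11, lay above them on all arrays, against 9727 of all genes. Cited1, a coactivator of the estrogen receptor, read 7.87 and 4.70 in the arrays labelled MEKi, against 8.0 and 7.65 in those labelled vehicle. Wnt4, a Wnt ligand induced by progesterone in the mouse gland, read 5.25 and 4.20 in the arrays labelled MEKi, against 6.21 and 5.95 in those labelled vehicle. For both genes MEKi 2 was lowest, as for Foxa1, Elf5 and Pgr, and neither passed (adjusted p = 1 for each, limma). Of the 11, 5 were lowest in MEKi 2 and 4 in MEKi 1, against 4655 and 5137 of all 17097 genes. Igfbp4, the brightest, read 12.99 and 13.70 in the arrays labelled MEKi, against 13.52 and 13.07 in those labelled vehicle, with MEKi 2 highest. Xbp1 read 12.70 and 11.91 in the arrays labelled MEKi, against 12.19 and 12.60 in those labelled vehicle, with MEKi 2 lowest.

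Of 21 further luminal and alveolar genes, 20 were measured, with a median by label of −0.11. Tfap2a, an AP-2 transcription factor gene, read 7.59 and 9.63 in the arrays labelled MEKi, against 9.62 and 7.75 in those labelled vehicle. Cebpb, needed for luminal development, read 10.39 and 12.19 in the arrays labelled MEKi, against 11.96 and 10.87 in those labelled vehicle. Both genes had the same order of arrays as Sox9 and the MAPK output medians. Aldh1a3, an aldehyde dehydrogenase gene of luminal progenitors, read 5.82 and 4.4 in the arrays labelled MEKi, against 6.55 and 6.92 in those labelled vehicle. Of 22 basal and myoepithelial genes, 21 were measured, with a median by label of −0.16. Of the 21, 13 were lowest in MEKi 2, against 4655 of all 17097 genes. Bcl11b and Bcl11a had the largest ranges and the order of arrays of the T cell medians given below, which the B cell medians shared. Bcl11b, also on the T cell list, read 10.75 and 4.44 in the arrays labelled MEKi, against 6.24 and 10.43 in those labelled vehicle. Bcl11a read 10.15 and 4.40, against 4.82 and 9.25. B cell genes had medians of 9.7 and 4.18 in the arrays labelled MEKi, against 4.19 and 9.48 in those labelled vehicle. MEKi 1 and vehicle 2 were both above the other arrays in 11 of 11 measured B cell genes, against 5040 of all 17097 genes. The basal keratin genes Krt5 and Krt14 had log2 fold changes of −0.99 (SE 0.22) and −0.91 (SE 0.31), with an adjusted p of 1 for each by limma. Among 10 other Sox genes, with a median by label of −0.11, Sox4 read 10.38 and 12.21 in the arrays labelled MEKi, against 11.37 and 10.19 in those labelled vehicle. Of 10 partner and relative genes of Gata3 and Foxa1, 3 (Foxa2, Foxa3 and Gata4) lay below the array medians on all arrays and 6 above them. Over all 17097 genes these counts were 5822 and 9727. The median by label of the 10 genes was −0.10.

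Markers of other cells moved with some members. T cell genes, a lineage in which Gata3 is active, had medians of 9.95 and 5.10 in the arrays labelled MEKi, against 6.24 and 9.88 in those labelled vehicle. MEKi 1 exceeded vehicle 1 in 13 of 13 measured T cell genes and MEKi 2 exceeded vehicle 2 in 0, the reverse of Gata3. Over all 17097 genes these counts were 8649 and 8842. The summed level of the T cell genes on the log2 scale was 14.00 and 9.08 in the arrays labelled MEKi, against 10.09 and 13.97 in those labelled vehicle. Macrophage and monocyte genes had medians of 9.66 and 10.44 in the arrays labelled MEKi, against 10.95 and 10.01 in those labelled vehicle. Of these, 12 of 12 were highest in vehicle 1, against 3443 of all 17097 genes. So were 5 of the 9 members, namely Gata3, Foxa1, Pgr, Sox10 and Kit. The summed level of the macrophage and monocyte genes was 14.06 and 14.64 in the arrays labelled MEKi, against 15.33 and 14.53 in those labelled vehicle. The part of these cells in the readings of Gata3 and Sox9 was not tested, and in bulk tumor RNA fewer cells of a type and less RNA per cell cannot be told apart.

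Beside Foxa1, Elf5 and Pgr, most markers of the fat pad, of fibroblasts and of mast cells were also lowest in the array labelled MEKi 2. Over all 17097 genes, 4655 were lowest in that array. Adipocyte genes had medians of 7.59 and 5.73 in the arrays labelled MEKi, against 9.09 and 8.50 in those labelled vehicle, and 6 of 7 measured were lowest in MEKi 2, with summed levels of 12.44 and 11.14 in the arrays labelled MEKi, against 13.33 and 13.14 in those labelled vehicle. Fibroblast genes had medians of 9.17 and 7.98 in the arrays labelled MEKi, against 9.99 and 9.76 in those labelled vehicle, and 7 of 10 were lowest in MEKi 2, with summed levels of 14.04 and 13.02 in the arrays labelled MEKi, against 14.30 and 14.22 in those labelled vehicle. The 13 T cell genes were lowest in MEKi 2 as well. Among tumor epithelial genes, 10 of 17 were lowest in MEKi 2, with summed levels of 12.90 and 13.66 in the arrays labelled MEKi and 14.4 and 13.61 in those labelled vehicle. Krt19, a luminal keratin gene, read 8.91 and 4.52 in the arrays labelled MEKi, against 9.36 and 9.42 in those labelled vehicle, whereas Krt8, another, read 10.54 and 12.11 in the arrays labelled MEKi, against 12.92 and 11.75 in those labelled vehicle. Epcam, an epithelial adhesion gene, read 9.06 and 6.54 in the arrays labelled MEKi, against 8.79 and 9.23 in those labelled vehicle. The part of fat pad, fibroblasts or tumor cells in these readings was not tested.

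Mast cell genes, beside which Kit is set, had medians of 7.29 and 4.59 in the arrays labelled MEKi, against 8.08 and 7.44 in those labelled vehicle. Of 11 measured, 10 were lowest in MEKi 2 and 8 highest in vehicle 1, against 4655 and 3443 of all 17097 genes. Summed levels of the mast cell genes were 10.97 and 8.53 in the arrays labelled MEKi, against 12.39 and 10.99 in those labelled vehicle. Cpa3, a mast cell protease gene, read 8.63 and 4.61 in the arrays labelled MEKi, against 10.18 and 8.66 in those labelled vehicle. The part of mast cells in the Kit readings was not tested. Among Schwann cell and melanocyte genes, beside which Sox10 is set, 7 of 12 measured lay below the array medians on all arrays, against 5822 of all 17097 genes. Among the 7 were S100b, Foxd3, Dct, Tyr, Tyrp1 and Mlana. Summed levels of the list were 10.19 and 10.46 in the arrays labelled MEKi, against 11.18 and 10.64 in those labelled vehicle. Pmp22, its brightest gene, alone read 9.30 and 10.10, against 10.88 and 9.91. Among keratinocyte genes, beside which Trp63 is set, 6 of 11 lay below the array medians on all arrays. Krt1, Lor and Krtdap were among these, and the summed level was 9.32 and 8.31 in the arrays labelled MEKi, against 8.60 and 9.31 in those labelled vehicle. The sum had the order of arrays of Dsc3, which read 8.52 and 3.83 in the arrays labelled MEKi, against 4.03 and 8.11 in those labelled vehicle. That is also the order of the T cell and B cell medians. The sums of these 2 lists therefore need not give the level of the cells they are named after. The part of these cells in the readings of Sox10 and Trp63 was not tested.

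**Figure D4:**
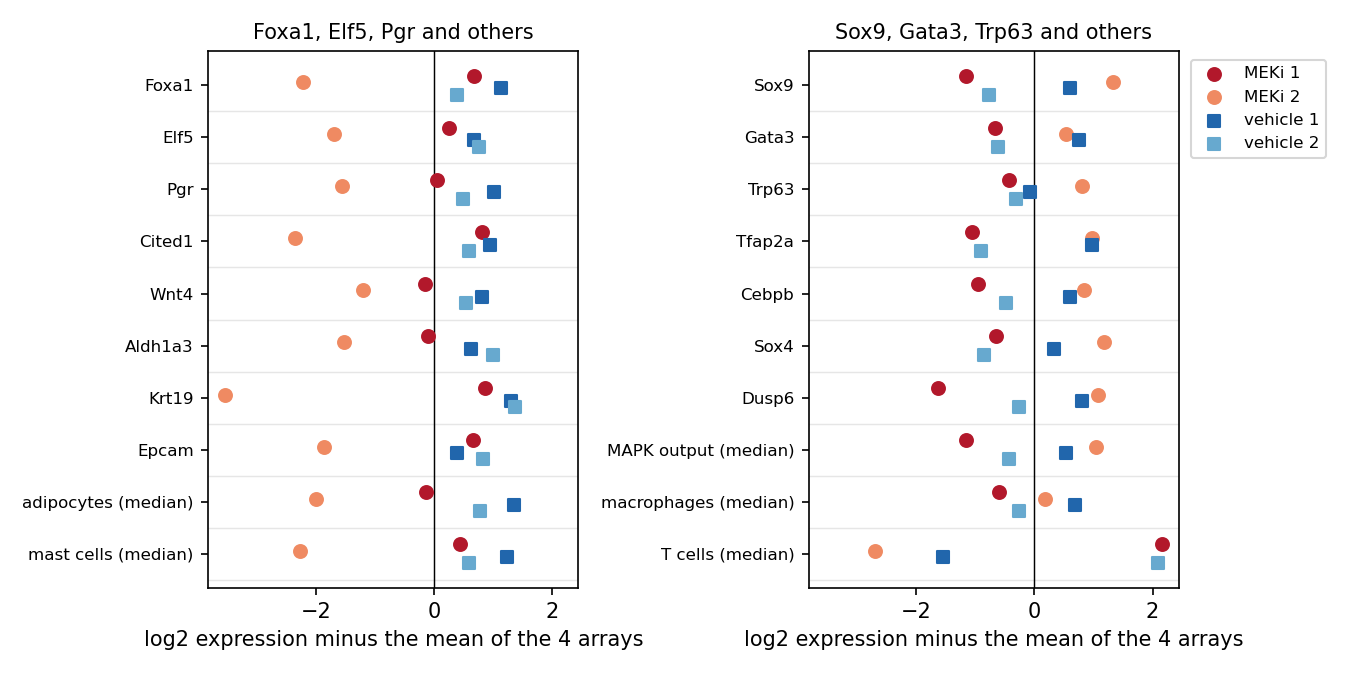
Log2 expression minus the mean of the 4 arrays (horizontal axis) for members, other genes and the medians of gene lists, drawn as circles (labelled MEKi) and squares (labelled vehicle). The rows were picked by hand with their values in view. In the left panel MEKi 2 lies lowest in every row, which follows from that choice. Krt8 and Igfbp4, of the same lists, do not have MEKi 2 lowest and are not drawn. In the right panel the T cell median has MEKi 1 and vehicle 2 (9.95 and 9.88) right of 0, where Sox9 and Gata3 have them left of 0.

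The genes most like each member were found by the root mean square difference of values centred on their own mean over the 4 arrays, among 4341 other genes with a range over 1 log2 unit. For Sox9 they were Fblim1 (0.043), Plekhh3 (0.046) and Map3k20 (0.047). For Gata3 they were Oasl2 (0.050), 2700081O15Rik (0.052) and Zfp948 (0.052), and for Trp63 they were 1810062G17Rik (0.026), Slc7a5 (0.034) and Zfp266 (0.043). Pgr was closest to Ctsk (0.031), Id4 (0.069) and Acta2 (0.090), and Elf5 to Tnc (0.078), Ccn3 (0.089) and Mlph (0.090). Foxa1 had no gene as close, with Pdcd1lg2 (0.102), Meg3 (0.164) and Cited1 (0.168) the nearest. Cited1 and Id4 are also in the lists above. With 4 arrays these distances describe the arrays only, and Esr1, Sox10 and Kit had ranges under 1 log2 unit and were not set against other genes.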

How the data were processed

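Log2 expression values of 4 arrays (2 labelled MEKi, 2 labelled vehicle) were taken as deposited by the authors, who used RMA (AFFY package, R) with quantile normalization over the arrays. The versions of RMA and AFFY, any filter and any pooling of replicates are not given in the sources used here. Of 45141 probe sets, 104 controls were left out and 45037 tested. Of these, 28898 have 1 gene symbol in the platform annotation, 551 several and 15588 none, and unnamed or multiply named probe sets were not used for genes. Entrez identifiers matched 28689 to the mouse gene table, with 0 symbols changed. The number of arrays limits the precision.

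Arrays were grouped by label and compared by lmFit and eBayes of limma 3.58.1 (R 4.3.3), two-sided, with adjustment over all probe sets. Named genes were all members, and of other lists some of the 2 brightest and the 2 most variable, many of which are not named. Further genes, among them Wnt4, Greb1, Calcr, Esr2, Epcam, Krt5, Krt14, Foxa2, Foxa3 and Gata4, were picked outside this rule with their values in view. The members and lists were chosen with earlier results of these data known. Alternatives were a stricter adjusted p of 0.05, an intensity trend, no moderation, leaving out the dimmest 0.25 of probe sets, 2 centrings, each array left out, the replicate number as a block, and the mean of a gene's probe sets. The fit was tested on simulated data. Motifs were searched as exact letters on both strands. Tables and figures used Python 3.11.15, pandas 2.3.3, numpy 2.4.6 and matplotlib 3.10.9.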

Additional observations from a re-analysis of the deposited data

How the results depend on the processing

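The count of called probe sets was 0 under each alternative run, over all probe sets and over the members, with 406 probe sets at an unadjusted p under 0.05 by limma as reported, 683 with an intensity trend, 1189 without moderation, 243 without the dimmest probe sets, 7891 after centring on tumor epithelial genes, 2027 without MEKi 1 and 80 without vehicle 1. With the replicate number as a block, 0 were called (267 at an unadjusted p under 0.05), and the same-numbered arrays deviated in opposite directions across probe sets (r = −0.764). With the crossed pairing, a replicate block chosen after seeing the data, 0 were called too, with 1447 at an unadjusted p under 0.05 by limma. Centring on tumor epithelial genes moved the median log2 fold change of all probe sets from 0.01 to 0.92, and then Esr1 and Gata3 were at 0.78, Sox10 at 0.18 and Kit at 0.54, which turned their sign. Pgr was then at −0.60, Foxa1 at −0.62, Elf5 at −0.53, Sox9 at 1.08 and Trp63 at 1.29. This scaling, added for the same-number differences after seeing the data, moved all probe sets by 0.45 in MEKi 1 minus vehicle 1 and by 1.37 in MEKi 2 minus vehicle 2. With it, 3 member probe sets were over 1.5-fold higher and 3 lower in MEKi 1 (36.6% and 6.65% of all probe sets), and 15 higher and 3 lower in MEKi 2 (90.1% and 2.82% of all). With the probe sets of each gene averaged, Pgr was at −0.47, Elf5 at −0.70, Sox10 at −0.20 and Trp63 at 0.10. The cause was not tested.

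With 1 array left out in turn, the log2 fold change by label ran between −0.54 and 0.29 for Esr1, −2.32 and −0.71 for Pgr, −0.81 and 0.56 for Gata3, −2.97 and −0.08 for Foxa1, −2.40 and −0.47 for Elf5, −1.06 and 1.42 for Sox9, −0.79 and −0.67 for Sox10, −0.58 and −0.15 for Kit, and −0.23 and 0.99 for Trp63. The fit with 1 array in a group assumes that it varies like the other group. Under the remaining alternatives, 59 values kept the sign and the side of the threshold, and the 4 that turned are the genes under tumor epithelial centring. Signal near the floor limits Esr1 and Trp63, the dimmer probe sets, and the MEKi 2 readings of Pgr (4.07) and Elf5 (4.00). The brightest Sox10 probe set, at 5.21 and 5.26 in the arrays labelled MEKi, lay little above the array medians.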
